A study of Mus musculus with 8 samples.

Results

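Transcripts of 6 subunits of the GABA-A receptor were measured in sorted cells of the mouse central amygdala: the beta subunits Gabrb1 and Gabrb2, the delta subunit Gabrd, the gamma subunit Gabrg1, the epsilon subunit Gabre and the theta subunit Gabrq. They were chosen by name, and all 6 were found among the 20692 genes of the files. Another 13 GABA-A subunit genes served as the rest of the family. The 8 libraries came from 8 male mice, 1 mouse per library, with about 1000 td-Tomato positive cells each. PkcdRed mice carried PKC delta-type::Cre and SstRed mice carried SST::Cre. Both lines also carried Rosa::loxP-STOP-loxP-td-Tomato, so a cell was red wherever Cre had removed the stop, under control of the Prkcd or the Sst gene. No challenge was given. PkcdRed replicates 1 and 2 were 9 weeks old and replicates 3 and 4 were 18 weeks old, and the matching SstRed ages were 8 and 20 weeks. The comparison asks how these unchallenged cell populations differ.

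GABA-A receptors are chloride channels that open when GABA binds, and they carry most fast inhibition in the brain. Each receptor joins several subunits around a pore. Beta subunits form the GABA binding site together with alpha subunits, and gamma subunits form the benzodiazepine site with them. The delta subunit takes the place of gamma in receptors outside synapses that give tonic inhibition. Epsilon and theta are less common subunits with restricted expression. Neurons of the central amygdala that express PKC delta or somatostatin are themselves inhibitory and inhibit each other. Gabrg1 and Gabrb1 are also known from astrocytes, the supporting glia of the brain.

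Library totals were 10316149 to 18242496 estimated counts at 8 to 9 weeks and 964361 to 2522749 at 18 to 20 weeks, so age class and depth cannot be told apart. Prkcd was at 106.5 to 225.7 TPM (a transcript level scaled to transcript length and library) in PkcdRed libraries and 0 to 30.2 TPM in SstRed libraries. Sst was at 0.209, 222.7, 4.33 and 13.7 TPM in PkcdRed replicates 1 to 4. The value of replicate 2 lay within the SstRed range of 116.3 to 296.2 TPM. Neither gene passed the edgeR test between populations described below (adjusted p 0.219 for Prkcd and 0.845 for Sst). Summed over 10 genes, pan-neuronal markers reached 160 to 717.2 TPM across the 8 libraries. Oligodendrocyte markers (8 genes) summed to 10180 to 59650 TPM, and microglial markers (12 genes) to 30000 to 48970 TPM in PkcdRed and 463.4 to 5916 TPM in SstRed libraries. Of 7 GABAergic neuron markers, Gad1 was at 1.71 to 106.6 TPM and Gad2 at 0.208 to 80.0 TPM across the 8 libraries. Dlx5 was listed at 0 in all 8 libraries and Slc32a1, the vesicular GABA transporter, in 4. Dlx1, Dlx2 and Dlx6 were at 0 in every SstRed library and at most at 2.36 TPM in PkcdRed libraries. In each library the oligodendrocyte sum was above the pan-neuronal sum. In such bulk libraries fewer cells of a type and less RNA per cell cannot be told apart.

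The 6 genes lie at 4 places in the GRCm38.p6 build. Gabrg1 (chromosome 5, 70751047 to 70842617) and Gabrb1 (chromosome 5, 71657921 to 72149572) are the outer members of a cluster that also holds Gabra2 and Gabra4. Gabre (chromosome X, 72256926 to 72274828) and Gabrq (chromosome X, 72825163 to 72842607) flank Gabra3. Gabrb2 (chromosome 11, 42419515 to 42632591) has Gabra6 as its nearest subunit gene, and Gabrd (chromosome 4, 155384979 to 155398098) stands apart. The 5′ end of Gabrb1 overlaps that of Gabra4, on the other strand, by 388 bases. No source used here says whether strand entered the counting, so reads from this stretch could belong to either gene.

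Promoter windows of RefSeq (GRCm38.p6, 250 bases before to 50 after a listed start) were available for 5 of the 6 genes. They are shown for Gabrg1 and Gabrb1, which gave most of the reads, and for Gabrb2, the scarcer beta subunit, at its listed start with a TATA sequence. Capitals mark CpG pairs.
Gabrg1, chr5:70842568-70842867, minus strand: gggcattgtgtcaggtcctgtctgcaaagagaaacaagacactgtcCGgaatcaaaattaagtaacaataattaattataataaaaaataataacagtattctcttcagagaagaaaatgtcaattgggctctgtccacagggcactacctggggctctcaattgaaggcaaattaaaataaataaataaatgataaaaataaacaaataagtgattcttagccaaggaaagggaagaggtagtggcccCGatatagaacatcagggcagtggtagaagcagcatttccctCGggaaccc
Gabrb1, upstream start, chr5:71657671-71657970, plus strand: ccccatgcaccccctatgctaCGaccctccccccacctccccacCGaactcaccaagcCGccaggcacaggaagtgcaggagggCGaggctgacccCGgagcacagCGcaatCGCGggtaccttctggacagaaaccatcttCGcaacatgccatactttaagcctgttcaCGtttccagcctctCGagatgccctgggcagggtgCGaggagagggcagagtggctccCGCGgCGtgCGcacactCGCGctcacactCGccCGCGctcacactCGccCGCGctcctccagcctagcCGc
Gabrb1, downstream start, chr5:71699682-71699981, plus strand: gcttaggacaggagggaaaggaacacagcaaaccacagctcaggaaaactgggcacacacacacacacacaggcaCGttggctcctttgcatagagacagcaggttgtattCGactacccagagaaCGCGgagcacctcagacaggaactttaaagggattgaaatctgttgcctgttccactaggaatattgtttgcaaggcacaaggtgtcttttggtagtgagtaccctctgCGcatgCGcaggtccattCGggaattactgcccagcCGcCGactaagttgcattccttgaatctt
Gabrb2, chr11:42420190-42420489, plus strand: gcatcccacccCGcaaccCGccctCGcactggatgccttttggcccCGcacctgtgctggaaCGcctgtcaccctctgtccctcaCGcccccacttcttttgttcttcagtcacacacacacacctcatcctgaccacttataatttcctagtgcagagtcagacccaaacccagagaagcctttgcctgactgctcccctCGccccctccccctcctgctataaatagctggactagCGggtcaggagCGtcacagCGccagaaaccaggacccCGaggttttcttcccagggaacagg

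These windows differ in base composition. That of Gabrg1 was 38.3% G and C with 3 CpG pairs, and the upstream window of Gabrb1 was 66.0% with 25 CpG pairs. The downstream window of Gabrb1 was 50.3% with 9 pairs, and that of Gabrb2 was 59.0% with 11 pairs. The medians over 32851 promoter windows were 52.7% and 7 pairs. A search on both strands took in the TATA box core (TATAAA), the GC box (GGGCGG), the E-box (CANNTG), the cyclic AMP response element (TGACGTCA) and the NFI site. Gabrg1 held 2 E-boxes, at -129 and -91 from the start, and no match to the other 4. An E-box was present in 72.3% of all windows. Gabrb2 held TATAAA at -30, a sequence present in 13.6% of all windows, and also a GC box (35.7%) and an E-box. The other 2 listed Gabrb2 windows held none of these motifs, and the one shown was picked for its TATA sequence. Neither Gabrb1 window held a match. The windows of Gabre and Gabrq were 66.7% and 67.0% G and C and held 3 and 2 GC boxes. A match is a string of letters and does not show binding.

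Gabrg1 and Gabrb1 made up nearly all of the 6 subunits' transcripts in most libraries. Together they were 95.5% to 98.6% of the summed TPM in PkcdRed replicates 1 and 3 and in the 4 SstRed libraries. They were 89.6% in PkcdRed replicate 4, which held 28 reads of the 6 genes, and 32.1% in PkcdRed replicate 2, which held 122. Gabrg1 was the highest of the 6 in 6 libraries, Gabrb1 in 1 (PkcdRed replicate 1) and Gabrd in 1 (PkcdRed replicate 2).

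**Figure D1:**
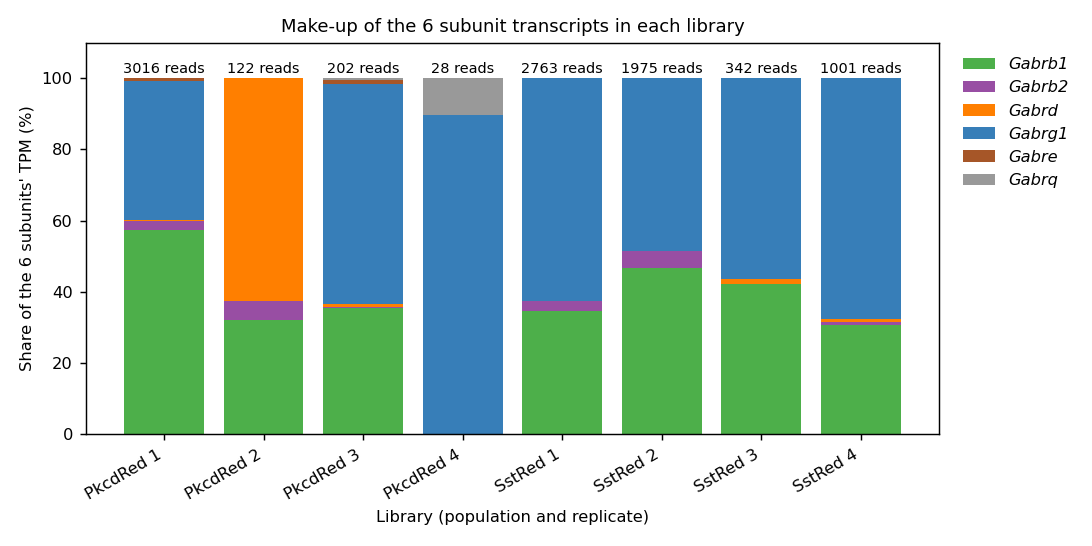
Share of each subunit in the summed TPM of the 6 subunits (y axis, percent) for each of the 8 libraries (x axis), with the estimated counts of the 6 genes above each bar. Gabrb1 and Gabrg1 fill 95.5% to 98.6% of 6 bars, while Gabrd takes 62.6% of PkcdRed replicate 2.

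Gabrb1, a beta subunit, was at 49.0, 2.67, 35.4 and 0 TPM in PkcdRed replicates 1 to 4 and at 23.4, 30.3, 45.8 and 52.1 TPM in SstRed replicates 1 to 4. PkcdRed replicates 2 and 4 lay below every SstRed library, and PkcdRed replicates 1 and 3 lay within the SstRed range. The means were 21.8 ± 24.3 and 37.9 ± 13.3 TPM (SD, n = 4 each). The 0 in PkcdRed replicate 4 came from 1556245 counts, and a count of 0 allows up to 3 counts, here 1.93 CPM (counts scaled to the library total). In the other 7 libraries Gabrb1 was at 3.20 to 54.7 CPM.

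Gabrb2, the other beta subunit of the set, was at 2.10, 0.439, 0.235 and 0 TPM in PkcdRed replicates 1 to 4 and at 1.89, 2.92, 0.288 and 1.53 TPM in SstRed replicates 1 to 4. It rested on 185, 24, 1 and 0 reads in the PkcdRed and on 156, 197, 2 and 18 reads in the SstRed libraries. The populations overlapped. Within each population the younger, deeper libraries lay above the older ones.

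Gabrb1 exceeded Gabrb2 per transcript length in 7 libraries, by 6.09 to 159.4 times, and the eighth, PkcdRed replicate 4, had no read of either. As a share of the TPM of these 2 beta subunits, Gabrb1 was 95.9% (95% exact binomial interval 95.2 to 96.5), 85.9% (77.7 to 91.5) and 99.3% (96.2 to 99.98) in PkcdRed replicates 1 to 3. It was 92.6% (91.2 to 93.8), 91.2% (89.7 to 92.5), 99.4% (97.7 to 99.9) and 97.1% (95.4 to 98.3) in SstRed replicates 1 to 4. The intervals cover counting error only and take each read as an independent molecule. Amplified reads are not independent, so the intervals are likely too narrow. PkcdRed replicate 2 had the lowest share, on 57 reads.

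The share did not separate the populations. It was 93.7 ± 6.99% in PkcdRed (SD, n = 3) and 95.1 ± 3.84% in SstRed libraries (SD, n = 4), with a two-sided exact permutation p of 0.743, where 3 against 4 cannot go below 0.0571. Counted in reads the share was lower, because the Gabrb2 target is 7552 and the Gabrb1 target 1860 bases long. Of the reads, Gabrb1 then took 57.9% to 97.1% in 3 PkcdRed and 70.1% to 97.3% in the SstRed libraries. With every beta subunit gene of the files as the denominator, the share of Gabrb1 was 57.0 ± 44.9% in PkcdRed and 90.5 ± 5.66% in SstRed libraries (SD, n = 4 each; exact permutation p = 0.314). PkcdRed replicates 2 and 4 then had 42.9% and 0%.

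Gabrg1, a gamma subunit, was at 33.4, 0, 61.7 and 5.99 TPM in PkcdRed replicates 1 to 4 and at 42.2, 31.4, 61.5 and 115.3 TPM in SstRed replicates 1 to 4. The same 2 libraries as for Gabrb1, PkcdRed replicates 2 and 4, lay below every SstRed library, and the other PkcdRed libraries lay within the SstRed range. The means were 25.3 ± 28.3 and 62.6 ± 37.3 TPM (SD, n = 4 each). PkcdRed replicate 2 had 0 reads of Gabrg1 in 10316149 counts, which allows up to 0.291 CPM. PkcdRed replicate 3, the shallowest library, had 163 reads, or 169 CPM.

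Gabrd, the delta subunit of tonic inhibition, was at 0.199, 5.21, 1.03 and 0 TPM in PkcdRed replicates 1 to 4 and at 0, 0, 1.26 and 1.49 TPM in SstRed replicates 1 to 4. It rested on 4, 65, 1 and 0 reads and on 0, 0, 2 and 4 reads. PkcdRed replicate 2 alone held 85.5% of all Gabrd reads. The pooled read rate of PkcdRed was 12.9 times that of SstRed libraries (95% exact interval 5.64 to 36.4, counting error only, reads taken as independent). Without PkcdRed replicate 2 this ratio was 1.38 (0.333 to 5.43).

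Gabre and Gabrq had reads in PkcdRed libraries and 0 in each SstRed library. Gabre, the epsilon subunit, had 21.2 reads (0.682 TPM) in PkcdRed replicate 1 and 2 reads (1.33 TPM) in PkcdRed replicate 3. Pooled over 4 libraries, its rate was 8.48 times the floor of 3 counts over the SstRed group, without counting error of the PkcdRed reads. Of its reads, 91.4% came from PkcdRed replicate 1. Without that library 2 reads remained, under the floor. Gabrq, the theta subunit, had about 1 read (0.367 TPM) in PkcdRed replicate 3 and about 3 reads (0.696 TPM) in PkcdRed replicate 4. Without PkcdRed replicate 4 about 1 read remained, and no fold is given. All of these Gabrq reads were assigned to the longer of its 2 targets, of 4943 bases.

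**Figure D2:**
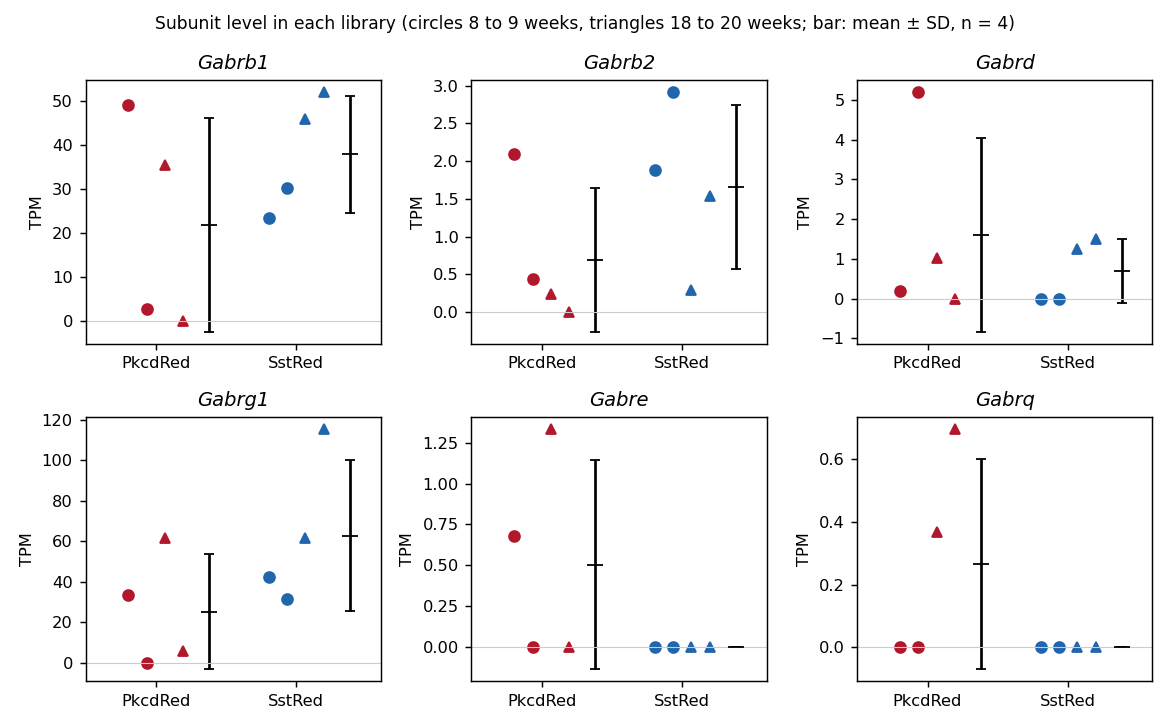
TPM (y axis, linear, own scale per panel) of each subunit in 4 PkcdRed and 4 SstRed libraries, with circles for 8 to 9 week and triangles for 18 to 20 week mice, and bars for the mean ± SD. Gabrb1 and Gabrg1 are low in PkcdRed replicates 2 and 4 and overlap otherwise, and Gabrd is highest at 5.21 TPM in PkcdRed replicate 2.

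None of the 6 subunits passed a test of PkcdRed against SstRed libraries, though the exact permutation test could not have passed Gabre or Gabrq. Gabrb1, Gabrb2 and Gabrg1 had enough reads for the edgeR quasi-likelihood test over 11328 genes, and 0 of these 3 passed at an adjusted p (Benjamini-Hochberg) of 0.05 or at an unadjusted p of 0.05. Of all genes tested, 0.282% passed the adjusted and 6.67% the unadjusted threshold. DESeq2 passed 0 of the 3 and 4.01% of all genes. The log2 fold change, PkcdRed minus SstRed, was -0.76 ± 1.41 (SE) for Gabrb1, with an edgeR adjusted p of 0.965. It was -1.84 ± 1.62 for Gabrb2 (0.910) and -1.32 ± 1.27 for Gabrg1 (0.926). The median of these 3 was -1.32, and the median of all tested genes was -0.08. The SE of 1.27 to 1.62 means that differences of several fold could not be resolved.

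The fold change was below 0 for these 3 subunits in every alternative model fit, between -2.95 and -0.07 for Gabrb1, -2.70 and -0.69 for Gabrb2 and -3.22 and -0.85 for Gabrg1, and none passed. The estimates moved with the method and with single libraries. Gabrg1 was at -2.91 without PkcdRed replicate 1, at -2.17 without replicate 3, at -0.85 without replicate 2 and at -0.90 without replicate 4. Gabrb1 was at -2.07 and -1.62 without PkcdRed replicates 1 and 3 and at -0.40 and -0.19 without replicates 2 and 4. Gabrb2 was at -2.70 without PkcdRed replicate 1 and at -1.03 without SstRed replicate 4. Limma on log2(TPM + 1) gave -2.04 for Gabrb1, -0.69 for Gabrb2 and -2.35 for Gabrg1, and on log2(TPM + 0.1) it gave -2.95, -1.64 and -3.22. Pooled over libraries, where the deep ones weigh most, the Gabrb1 read rate of PkcdRed was 1.04 times that of SstRed libraries. Its 95% exact interval was 0.955 to 1.13, with counting error only and reads taken as independent. A lower Gabrb1 level thus did not show in pooled reads. The same ratio was 0.623 (0.524 to 0.740) for Gabrb2 and 0.486 (0.461 to 0.512) for Gabrg1. PkcdRed replicate 1 gave most of the PkcdRed reads: 976 of 1043 for Gabrb1, 185 of 210 for Gabrb2 and 1830 of 2018 for Gabrg1.

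Single-gene exact permutation tests on log2(TPM + 1), two-sided, were run for 6 subunits and not adjusted over them; 4 against 4 cannot go below p = 0.0286. The exact p was 0.314 for Gabrb1, 0.257 for Gabrb2, 0.2 for Gabrg1 and 0.714 for Gabrd. For Gabre and Gabrq it was 0.429 each. That is the lowest p this test can give for a gene with reads in only 2 libraries, so it could not pass them. In 0 of the 6 genes did the TPM ranges of the populations separate, as they did in 6.94% of all genes tested in edgeR. The summed TPM of the 6 subunits was 85.4, 8.32, 100.1 and 6.69 in PkcdRed replicates 1 to 4 and 67.5, 64.6, 108.9 and 170.4 in SstRed replicates 1 to 4 (exact permutation p = 0.229). PkcdRed replicates 2 and 4 were again the lowest.

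**Figure D3:**
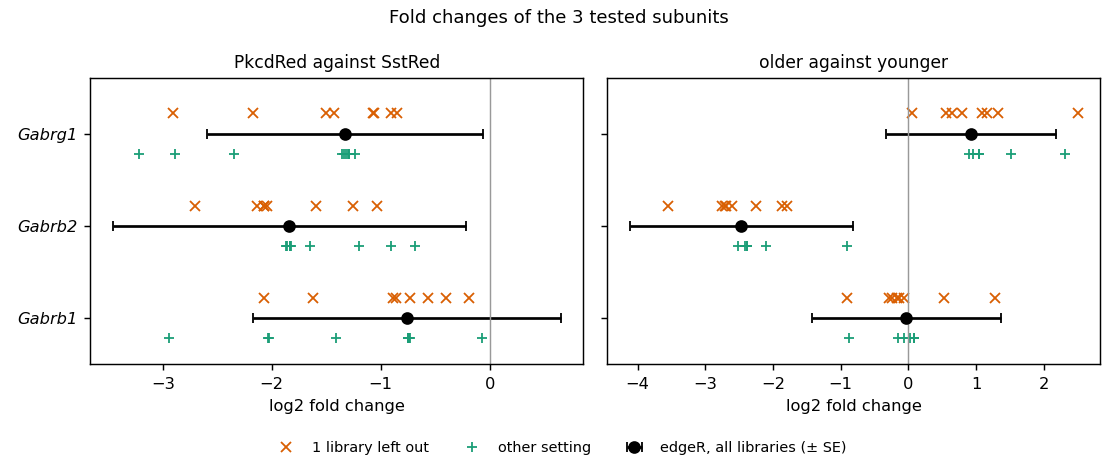
Log2 fold change (x axis) of the 3 subunits that could be tested, for PkcdRed against SstRed (left) and older against younger libraries (right); black points with bars are edgeR estimates ± SE, crosses leave out 1 library and plus signs are the other settings. Estimates on the left stay below 0 but range widely, and Gabrb1 on the right lies on both sides of 0.

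Within age classes, fitted alone, 0 genes were called in either. At 8 to 9 weeks, 2 against 2 libraries, the edgeR log2 fold change was -0.07 for Gabrb1, -0.90 for Gabrb2 and -1.24 for Gabrg1 (adjusted p 1.00 each). At 18 to 20 weeks it was -1.41 for Gabrb1 (adjusted p 1.00) and -1.35 for Gabrg1 (0.951), and Gabrb2 had too few reads. The interaction of population and age class in edgeR had an adjusted p of 1.00 for Gabrb1, Gabrb2 and Gabrg1, where 0 of 11328 genes passed and 467 had an unadjusted p under 0.05.

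Age class, compared in the same model, gave no call among the subunits. Gabrb2 was at 0.514 ± 0.692 TPM in older and 1.84 ± 1.03 TPM in younger libraries (SD, n = 4 each), and the edgeR log2 fold change, older minus younger, was -2.47 ± 1.65 (SE; adjusted p 0.726). Gabrg1 was at 61.1 ± 44.6 and 26.7 ± 18.4 TPM, with a log2 fold change of 0.92 ± 1.26 (0.881). Gabrb1 was at 33.3 ± 23.3 and 26.4 ± 19.1 TPM, with -0.03 ± 1.40 (0.998), and its sign turned with scaling (0.0835 with RLE size factors). The median of all tested genes moved from -0.16 with TMM to -0.06 with RLE scaling. Of all genes, 0.053% passed the adjusted threshold, 0.0265% higher and 0.0265% lower in older libraries. Unadjusted, 0 of the 3 subunits had p under 0.05, against 8.35% of all genes. The TPM ranges of the age classes separated in 0 of the 6 subunits and in 7.68% of all genes tested.

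Markers of other cell types were set beside the subunits by library. Astrocyte markers summed to 352.6 TPM in PkcdRed replicate 2 and to 2796 to 7019 TPM in the other 7 libraries. PkcdRed replicate 2 was the library with 0 reads of Gabrg1 and 2.67 TPM of Gabrb1. Of the 10 markers, Aldh1l1, an astrocyte enzyme, was at 0 there, the water channel Aqp4 was at 0.0827 TPM, and the filament protein Gfap was at 36.2 TPM, above the 12.4 TPM of SstRed replicate 1. PkcdRed replicate 4 had an astrocyte sum of 3060 TPM, mostly from Aldoc (1600 TPM) and Slc1a3 (966.6 TPM). That library had 5.99 TPM of Gabrg1 and 0 of Gabrb1. Its Aldh1l1 was at 1.52 TPM and its Aqp4 at 39.9 TPM, while its Gfap, at 153.8 TPM, was the highest of the 8 libraries. Aldh1l1 was also low in SstRed replicate 1, at 2.99 TPM, beside 42.2 TPM of Gabrg1 and 23.4 TPM of Gabrb1. Of the 10 astrocyte markers, 0 passed in edgeR in either direction (0.282% of all genes did), and their range was 352.6 to 3941 TPM in PkcdRed and 2796 to 7019 TPM in SstRed libraries. The part of astrocyte RNA in the Gabrg1 and Gabrb1 levels was not tested.

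Neuronal markers were set beside Gabrd in the same way. PkcdRed replicate 2, where Gabrd was highest, had the highest sums of pan-neuronal markers, 717.2 TPM, of excitatory neuron markers, 81.1 TPM, and of GABAergic neuron markers, 198.7 TPM against 6.69 to 109.6 TPM in the other 7 libraries. The GABAergic sum came from Gad1 (106.6 TPM), Gad2 (80.0 TPM) and Slc32a1 (12.2 TPM), and the other 4 markers were at 0. PkcdRed replicate 1 was close to it in pan-neuronal (681.5 TPM) and excitatory markers (73.3 TPM), yet had 0.199 TPM of Gabrd. PkcdRed replicate 2 also held 29.7 TPM of Slc12a5, the neuronal chloride exporter, against 0 to 2.00 TPM elsewhere. SstRed replicate 2, second in GABAergic markers (109.6 TPM) and with 677.4 TPM of pan-neuronal markers, had 0 reads of Gabrd in 16009560 counts, up to 0.187 CPM. The part of neuronal content in the Gabrd level was not tested.

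**Figure D4:**
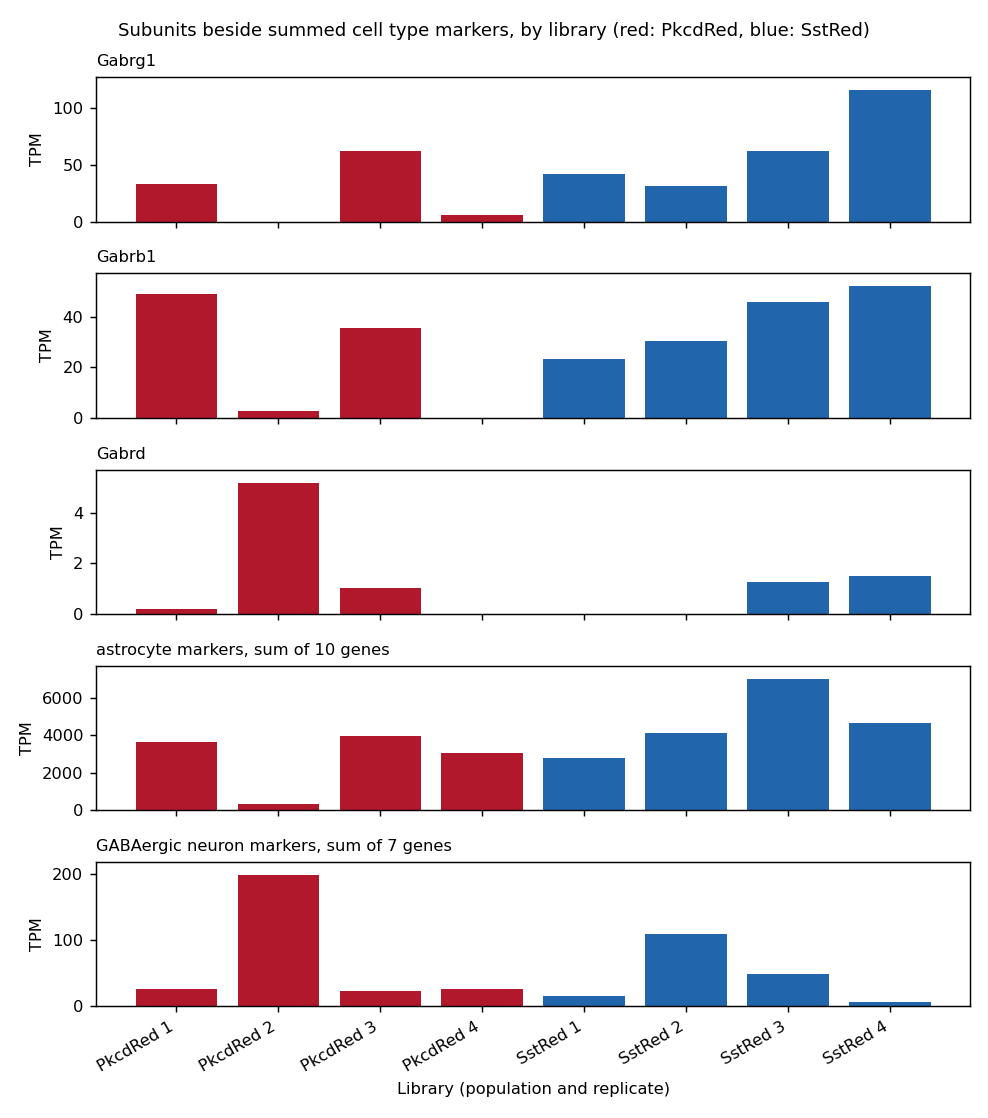
TPM by library (x axis) of Gabrg1, Gabrb1 and Gabrd and the summed TPM of 10 astrocyte and 7 GABAergic neuron markers, with red bars for PkcdRed and blue bars for SstRed. PkcdRed replicate 2 has no Gabrg1, the lowest astrocyte sum (352.6 TPM) and the highest GABAergic sum (198.7 TPM), while PkcdRed replicate 4 has little Gabrg1 with an astrocyte sum of 3060 TPM.

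Mural cell markers (7 genes of vessel walls) also summed lowest in PkcdRed replicate 2. Their sums were 879.1, 101.6, 3753 and 3034 TPM in PkcdRed replicates 1 to 4 and 2144 to 10390 TPM in SstRed libraries, and 0 of the 7 passed in edgeR. Endothelial markers (10 genes) summed to 299.9 to 4799 TPM in PkcdRed and 115.5 to 4046 TPM in SstRed libraries, and 0 passed. The part of vessel RNA in the subunit levels was not tested.

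Of 12 microglial markers, 4 were higher in PkcdRed libraries in edgeR, as were 0.282% of all genes. Their sums were 37610, 30110, 48970 and 30000 TPM in PkcdRed replicates 1 to 4, and none of the 12 was at 0 there. The 2 lowest of these PkcdRed sums were in replicates 2 and 4, where Gabrb1 and Gabrg1 were low too. In SstRed replicates 1 to 4 the sums were lower still, at 5916, 1922, 1363 and 463.4 TPM. Gabrb1 was at 23.4 to 52.1 TPM and Gabrg1 at 31.4 to 115.3 TPM in the SstRed libraries. The part of microglial RNA in the subunit levels was not tested.

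Genes with the profile most like a subunit were sought among 10019 genes of at least 10 mean CPM, by the root mean square difference of log2(TPM + 1) profiles centred over 8 libraries. For Gabrb1, whose own profile varied by 1.97 on this scale, the nearest were Ddx39a, an RNA helicase (0.446), Sptlc1, a subunit of the first enzyme of sphingolipid synthesis (0.605), and Spout1 (0.632). For Gabrg1, which varied by 2.07, they were Mcam, an adhesion molecule of vessels (0.480), AI987944 (0.519) and Slc25a38, a mitochondrial carrier (0.592). Each of these 6 was lowest in PkcdRed replicates 2 and 4. Gabrb1 itself stood at a difference of 1.27 from Gabrg1 and ranked 317 among the 10019 genes. For Gabrb2 the nearest were Cdc37l1 (0.308), Coprs (0.318) and Tsc22d2 (0.349), and for Gabrd they were Grk3 (0.382), Med20 (0.399) and Mrpl44 (0.405). With 8 points and low levels such likeness is a description only.

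Other genes of the receptor pathway were tested between the populations in edgeR. Of all genes, 0.282% passed, so counts of 0 in the short lists below lie near that share. Of the 13 other subunits, 6 could be tested and 0 passed. The 3 with the highest mean level were Gabra4 (6.17 ± 7.56 and 13.6 ± 17.7 TPM in PkcdRed and SstRed libraries), Gabra2 (1.38 ± 2.39 and 18.2 ± 19.7) and Gabra3 (2.11 ± 4.05 and 6.98 ± 5.24; SD, n = 4 each). In the chromosome 5 cluster, Gabra2 was at 45.9 TPM and Gabra4 at 0 in SstRed replicate 2, where Gabrb1 and Gabrg1 were at 30.3 and 31.4 TPM. Of the 6 subunits described here, the share in the TPM of all 19 was 35.7% to 83.5% in PkcdRed and 52.8% to 64.8% in SstRed libraries.

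Of 22 scaffold and trafficking genes, which hold receptors at synapses or carry them to the surface, 20 were tested and 0 passed. The most abundant were Gabarapl2 (580.8 ± 172.6 and 886.4 ± 263.2 TPM), Gabarap (365.1 ± 87.3 and 558 ± 142) and Gabarapl1 (235.9 ± 136.3 and 167.1 ± 76.4), relatives of the GABA-A receptor-associated protein that also act in autophagy. Of 10 genes of GABA synthesis, transport and chloride balance, 9 were tested and 0 passed. Among the most abundant were Abat, which breaks GABA down (113.5 ± 86.8 and 90.7 ± 90.8 TPM), and the chloride importer Slc12a2 (34.1 ± 18.4 and 56.3 ± 21.8). The median log2 fold changes of these 3 lists were -3.13, 0.13 and 0.33, beside -0.08 for all tested genes.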

How the data were processed

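RNA of about 1000 sorted td-Tomato positive cells per mouse was made into libraries with a SMARTer smRNA-Seq kit, per the labels' protocols. Each deposited file gives an estimated count and a TPM value for every transcript. Its columns are those kallisto writes. Tools listed in the submitters' processing notes are BWA 0.7.12 and kallisto 0.43.0, with mm10 as the build and no role stated. The deposited TPM corrects for transcript length and library total, so it holds no depth.

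Of 30404 targets, 30080 were named from the RefSeq table of GRCm38.p6, 147 from GENCODE, and 177 kept their accession. TPM and estimated counts were added up by gene, and the counts then rounded. Populations and age classes were compared in edgeR 4.0.16 (quasi-likelihood, TMM, default filter by population) in R 4.3.3, with terms for both and Benjamini-Hochberg adjustment at 0.05, and the script was tested on simulated data. Exact permutation tests used scipy 1.17.1. Alternatives used DESeq2 1.42.0, limma 3.58.1, other scaling, no filter, no age term, a replicate block, single age classes and each library left out. Each library is from a different mouse, and equal replicate numbers do not mark a shared animal. The named genes are the 6 subunits, up to 3 genes per pathway list by mean TPM and the 3 nearest profiles. Other genes were named after their values were seen. The members and lists were chosen with earlier results of these data known. Some genes of the family and lists are not reported here.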

Additional observations from a re-analysis of the deposited data

Results flagged for a closer look

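Among 25 groups of 4 libraries, by population or by age class, 3 had a library far from the other 3 (by Dixon's test at the 95% level), and chance flags about 1 in 20 such groups of normally distributed values. Of the 3, 2 are Gabre with the other libraries at 0, where any value above 0 meets the rule, so that rate does not apply to them. Gabrd was at 5.21 TPM in PkcdRed replicate 2 and at 0 to 0.199 TPM in the other libraries of 8 to 9 weeks. With the SstRed libraries of that age at 0, these values do not look normally distributed either, and the rate need not hold for them. Gabre was at 1.33 TPM (2 reads) in PkcdRed replicate 3 and at 0 in the other libraries of 18 to 20 weeks. Gabre was also at 0.682 TPM (21.2 reads) in PkcdRed replicate 1 and at 0 in the other libraries of 8 to 9 weeks.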

How the results depend on the processing

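Gabrd, Gabre and Gabrq had enough reads in too few libraries for edgeR's default filter, which left them out. With no filter their edgeR log2 fold changes between populations were 2.98, 5.50 and 2.96 (adjusted p 0.952, 0.837 and 0.952). Gabrd came through the filter in 4 fits with 1 library left out, at 3.17 to 5.45 (adjusted p 0.900 to 0.999). The 3 tested subunits passed in 0 alternatives in either comparison. The count of all genes called between populations (32) was 269 with no filter, 454 in DESeq2, 147 and 68 in limma on log2(TPM + 1) and log2(TPM + 0.1), 0 in younger and 0 in older libraries alone, and 10 to 52 with 1 library left out. The count by age class (6) was 2 with RLE factors, 249 with no filter, 555 in DESeq2, 53 and 12 in limma, and 0 to 2 with 1 library left out. The Gabrb1 age difference turned to 0.0835 with RLE factors, to 0.0834 in DESeq2, to 0.0194 with upper quartile scaling, and was -0.91 to 1.28 with 1 library left out (above 0 without PkcdRed replicates 1 and 4). The population difference in the Gabrb1 share of beta subunits (-1.36 percentage points) turned to 1.08 in older libraries alone, where PkcdRed has 1 library and there is no test, and was -4.17 to 2.55 with 1 library left out (above 0 without PkcdRed replicate 2 and SstRed replicate 3). Leaving out libraries or genes changes what enters each fit, and otherwise the cause was not tested.

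With the replicate number as a replicate block, edgeR called 24 genes, and the log2 fold changes were -2.02 for Gabrb1, -1.87 for Gabrb2 and -2.89 for Gabrg1 (adjusted p 0.946, 0.960 and 0.871). Deviations of same-numbered libraries correlated across genes at 0.0579 to 0.162, so the numbers do not pair the samples.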

Other observations

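The 13 other GABA-A subunit genes, added up after their values were seen, summed to 29.6, 15.0, 19.8 and 2.50 TPM in PkcdRed replicates 1 to 4 and to 44.6, 57.8, 59.1 and 111.5 TPM in SstRed replicates 1 to 4. The populations did not overlap in this sum, as single genes did not in 6.94% of those tested in edgeR. The sum was not tested. Markers of oligodendrocyte precursors summed to 37.2 to 611.9 TPM in PkcdRed and to 72.5 to 2364 TPM in SstRed libraries. The part of these cells in the sum was not tested.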
